A study of Mus musculus with 6 samples.

Results

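Tyr, Tyrp1 and Dct encode the 3 enzymes of the tyrosinase family, and were taken by their gene names from the table of raw counts, in which each name stands for 1 of the 22740 genes. All 3 passed the filter on low counts, which left 11921 genes. The cells were B16-F3, a line of mouse melanoma cells grown in culture, and they were sorted by flow cytometry on the way intracellular melanin scatters light. The highly pigmented cells (HPC) gave 3 libraries, as did the weakly pigmented ones (LPC), and the labels name no treatment beyond the sort. Where a group's libraries are given one by one, they stand in the order of their replicate numbers, 1, 2 and 3. The libraries were made from total RNA by a method that reads the 3′ ends of polyadenylated transcripts. A count is thus not expected to grow with transcript length. How completely the 3′ end of each gene was captured is not known, so comparisons between genes are comparisons of counts.

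Melanin is made inside melanosomes from the amino acid tyrosine. Tyrosinase, the product of Tyr, oxidises tyrosine and dopa and is the rate-limiting enzyme of the pathway. Dct, dopachrome tautomerase, converts dopachrome to a carboxylated indole, and Tyrp1, tyrosinase-related protein 1, acts later in the synthesis of brown-black eumelanin in the mouse and also stabilises tyrosinase. All 3 are membrane glycoproteins of the melanosome, and in melanocytes the transcription factor Mitf drives their genes through a promoter element known as the M-box.

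In GRCm38 the Tyr gene (ENSMUSG00000004651) spans chr7:87424771-87493512, minus strand, and overlaps no other gene. Tyrp1 (ENSMUSG00000005994) spans chr4:80834123-80851719, plus strand, and overlaps none either. Dct (ENSMUSG00000022129) spans chr14:118012790-118052244, minus strand, and is overlapped by 4930435M08Rik, an antisense RNA gene that lies 32184 bases from the 3′ end of Dct. No 31-base stretch in the last 500 bases of the enzymes' first listed transcripts occurred in any annotated transcript of another gene. Over the whole of these transcripts, 145 of 6012 such stretches of Tyr and 17 of 2690 of Tyrp1 also occurred in other genes. None of Dct did, and no such stretch was shared between the 3 enzymes.

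The bases around the M-box are shown for the 3 genes because the motif is the known common element of their promoters. Each line gives 30 bases on the gene's own strand, from the RefSeq promoter table of GRCm38.p6, with the motif in capitals (Tyr chr7:87493517-87493546, minus strand; Tyrp1 chr4:80834154-80834183, plus strand; Dct chr14:118052380-118052409, minus strand).
Tyr: agaaaaagttAGTCATGTGCTttgcagaag
Tyrp1: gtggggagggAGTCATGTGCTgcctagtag
Dct: gtgcacttaggGTCATGTGCTaacaaagag

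The motif was read from the promoters themselves, as the longest stretch around CATGTG that Tyr and Tyrp1 share. This 11-base stretch, AGTCATGTGCT, which matches the M-box, lies in Tyr, 24 bases before the annotated start, and in Tyrp1, 49 bases before it. Its last 10 bases, GTCATGTGCT, the longest such stretch in all 3, lie in Dct, 152 bases before the start. The Tyrp1 site lies within an exon of 1 annotated transcript that starts further upstream. Searched on both strands over 32851 windows of 300 bases around gene starts, the 11-base form was present in 7 windows (0.0213%) and the 10-base form, which every 11-base match contains, in 61 (0.186%). These counts include the enzyme genes from which the motif was read, which had to match. The central 6 bases, CATGTG, which lie inside both longer forms, were present in 14.2% of windows. Of 42 genes with the 10-base form, 5 were tested in these libraries, namely the 3 enzymes, Dclk1 and Tmem140, with log2 fold changes of HPC over LPC from -0.07 for Dct to 2.30 for Tyr.

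The 250 bases before the start are given for Tyr, whose level differed most between the sorted populations, and for Dct, whose level differed least of the 3. They cover chr7:87493513-87493762 for Tyr and chr14:118052247-118052496 for Dct, both on the minus strand, with the M-box in capitals.
Tyr: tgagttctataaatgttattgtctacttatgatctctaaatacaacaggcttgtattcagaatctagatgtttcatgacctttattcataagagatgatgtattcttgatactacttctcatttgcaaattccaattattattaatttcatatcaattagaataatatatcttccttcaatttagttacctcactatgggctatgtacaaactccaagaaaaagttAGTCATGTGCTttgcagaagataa
Dct: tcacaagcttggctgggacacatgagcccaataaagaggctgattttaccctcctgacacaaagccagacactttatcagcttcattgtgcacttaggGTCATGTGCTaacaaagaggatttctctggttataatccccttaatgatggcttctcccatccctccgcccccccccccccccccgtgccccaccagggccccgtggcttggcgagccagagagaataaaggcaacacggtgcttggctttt

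Library totals were 18131623 to 22186743 counts in HPC and 14695822 to 18810435 counts in LPC. The 5 melanocyte lineage markers summed to 11289 to 13017 CPM in HPC and 10698 to 13143 CPM in LPC (CPM, counts scaled to a common library size). Markers of immune cells, fibroblasts, endothelium and epithelium, 15 genes in all, summed to 10.8 to 18.3 CPM in HPC and 7.96 to 11.9 CPM in LPC, and 7 of the 15 (Ptprc, Adgre1, Cd3e, Cdh5, Kdr, Krt5 and Krt14) had no count in any library. Within the 15, the 6 immune markers summed to 8.16 to 15.3 CPM in HPC and 3.81 to 8.80 CPM in LPC, and most of this sum was Cd68, a macrophage lysosomal gene, which averaged 9.99 ± 2.96 CPM in HPC, against 4.65 ± 2.26 CPM in LPC, with overlap. The 3 fibroblast markers summed to 2.48 to 2.70 CPM in HPC and 2.82 to 3.95 CPM in LPC. The part of these markers in the results was not tested. Every pair of libraries differed by more than sampling noise, with chi-square values per degree of freedom from 25.9 to 62.8. Both ends of that range were pairs across the groups, namely HPC replicate 3 with LPC replicate 3 (25.9) and with LPC replicate 1 (62.8).

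The 3 enzymes did not share one pattern. Tyr was several-fold more abundant in HPC than in LPC in every pair of libraries with equal numbers, while the levels of Tyrp1 and Dct, which are far more abundant, differed little between HPC and LPC. In the fit without a block for the replicate number, edgeR called none of the 3, against 0.0419% of all tested genes called. Tyr had an unadjusted p of 0.00088, and neither of the others had one under 0.05. At that unadjusted level 5.06% of all tested genes were higher and 4.31% lower in HPC. With the block, Tyr was called, against 2.52% of all tested genes. DESeq2 without the block also called Tyr as higher, against 1.88% of all tested genes (1.02% higher and 0.856% lower in HPC). With limma-voom none of the 3 was called, and of all 11921 tested genes 0 were called as higher and 5 as lower in HPC.

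The HPC libraries held 908, 855 and 994 CPM of Tyr, from 16178, 18962 and 19562 counts. The LPC libraries held 261, 62.2 and 238 CPM, from 3873, 1177 and 3554 counts. The groups did not overlap, and the lowest HPC library held 3.27 times the level of the highest LPC library. Of all genes tested, 14.3% likewise showed no overlap, 7.16% with HPC higher and 7.18% with HPC lower. The HPC mean was 919 ± 70.3 CPM, the LPC mean 187 ± 109 CPM (SD, n = 3 each). The log2 fold change was 2.30 (SE 0.45, 95% interval 1.26 to 3.34), or 4.92-fold, with an edgeR adjusted p of 0.17. With the replicate block it was 2.52 (SE 0.35), or 5.74-fold, with an edgeR adjusted p of 0.021, and DESeq2 without the block gave 2.30 with an adjusted p of 0.0092.

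The size of the Tyr difference varied between the pairs of equally numbered libraries. HPC was 3.48-fold higher than LPC in the pair numbered 1, 13.8-fold in the pair numbered 2 and 4.18-fold in the pair numbered 3. Without the pair numbered 2 the blocked log2 fold change was 1.93 (SE 0.15, edgeR adjusted p = 0.066), in a fit with 1 residual degree of freedom that called 0 of 11927 genes. In bulk libraries such as these, fewer cells that express Tyr and less Tyr mRNA per cell cannot be told apart.

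Tyrp1 levels were 8619, 8905 and 7768 CPM in the HPC libraries, against 7839, 7326 and 6889 CPM in those of LPC. HPC replicate 3 lay just below LPC replicate 1, so the groups overlapped by this 1 library, although HPC was higher in every pair, by 1.10-, 1.22- and 1.13-fold. The HPC mean was 8431 ± 591 CPM, the LPC mean 7351 ± 475 CPM (SD, n = 3 each). The log2 fold change was 0.20 (SE 0.12, 95% interval -0.07 to 0.47), and no call was made in either fit (edgeR adjusted p = 0.69, or 0.38 with the block).

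Dct was the most abundant gene of all 6 libraries. The HPC libraries held 14195, 12412 and 12841 CPM of it, those of LPC 13552, 13313 and 14497 CPM. It took 1.24% to 1.39% of all counts in HPC and 1.34% to 1.45% in LPC. The groups overlapped, and HPC was the higher one in the pair numbered 1 only. The log2 fold change was -0.07 (SE 0.12, 95% interval -0.34 to 0.20) and did not pass (edgeR adjusted p = 0.91, or 0.80 with the block). The interval leaves out a fold change of the size seen for Tyr in either direction.

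**Figure D1:**
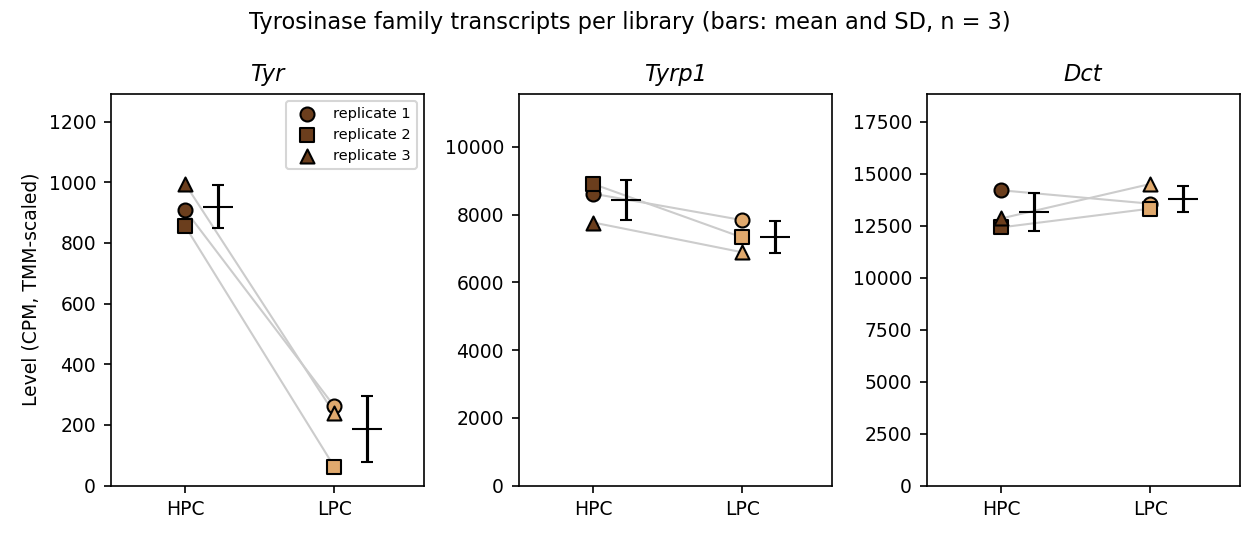
Levels of Tyr, Tyrp1 and Dct in CPM (counts scaled to a common library size with TMM factors) in 3 HPC and 3 LPC libraries, with a symbol for each replicate number, grey lines between equally numbered libraries, and the mean and SD beside each group. Tyr lies between 855 and 994 CPM in HPC and between 62.2 and 261 CPM in LPC, while the Tyrp1 and Dct groups overlap.

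In all 6 libraries the order of the levels was Dct, then Tyrp1, then Tyr, and the ranges of the 3 genes did not overlap in either group. Among all genes of a library, Dct ranked first in each, Tyrp1 ranked 2 to 6 in HPC and 4 to 6 in LPC, and Tyr ranked 60 to 84 in HPC. In LPC, Tyr ranked 656, 4118 and 717. No HPC library was highest for all 3 genes, since replicate 1 was highest for Dct, replicate 2 for Tyrp1 and replicate 3 for Tyr.

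Ratios of counts within a library do not depend on how libraries are scaled. For every 100 Dct counts there were 6.40, 6.89 and 7.74 Tyr counts in the HPC libraries, against 1.93, 0.467 and 1.64 in those of LPC. The ratio did not overlap between groups, and 10.6% of all tested genes had a ratio to Dct that was likewise non-overlapping and higher in HPC. The mean log2 ratio of Tyr to Dct was -3.84 ± 0.14 in HPC and -6.46 ± 1.12 in LPC (SD, n = 3 each), a difference of 2.62, or 6.14-fold. The two-sided exact permutation p was 0.1, the smallest that 3 against 3 libraries allow, and 0.1 adjusted over the 3 ratios. In an edgeR fit over all genes with the Dct counts as the scale of each library, Tyr differed by 2.38 on the log2 scale (SE 0.42, edgeR adjusted p = 0.073), and with the replicate block by 2.59 (SE 0.32, edgeR adjusted p = 0.0013). Blocked fits with a second enzyme as scale, here and for the ratios below, were chosen after seeing the data.

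For every 100 Tyrp1 counts there were 10.5, 9.60 and 12.8 Tyr counts in the HPC libraries, against 3.33, 0.849 and 3.45 in those of LPC. This ratio did not overlap either, and 1.41% of all tested genes had a ratio to Tyrp1 that was non-overlapping and higher in HPC. The mean log2 ratio was -3.20 ± 0.21 in HPC and -5.55 ± 1.15 in LPC, a difference of 2.35 (n = 3 each, two-sided exact permutation p = 0.1, again the smallest possible). With the Tyrp1 counts as scale, the edgeR adjusted p was 0.17 without the block and 0.0055 with it.

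The ratio between the abundant pair moved far less. Tyrp1 counts per 100 Dct counts were 60.7, 71.7 and 60.5 in the HPC libraries, against 57.8, 55.0 and 47.5 in those of LPC. The groups did not overlap, but they lay close, with 60.5 as the lowest HPC value and 57.8 as the highest LPC value. Of all tested genes, 10.6% had a ratio to Dct that was likewise non-overlapping and higher in HPC. The mean log2 ratio was -0.64 ± 0.14 in HPC and -0.91 ± 0.15 in LPC, a difference of 0.27, or 1.20-fold (n = 3 each, two-sided exact permutation p = 0.1, again the smallest possible). With the Dct counts as scale, Tyrp1 was called in neither fit (edgeR adjusted p = 0.53, or 0.15 with the block).

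**Figure D2:**
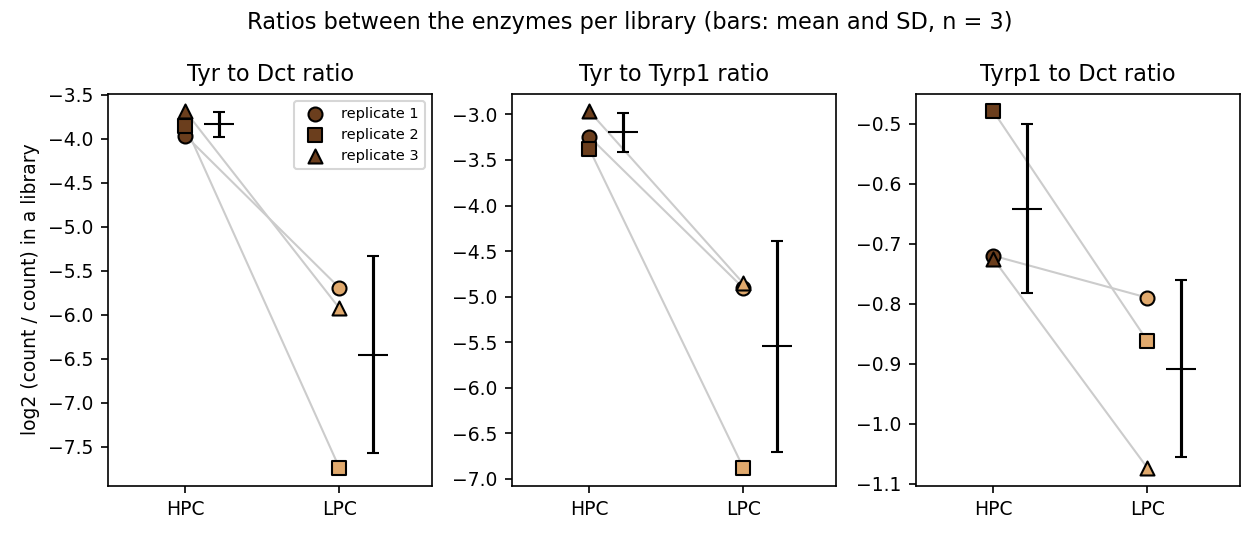
Log2 ratios of counts within each library for the 3 pairs of enzymes in HPC and LPC, with a symbol for each replicate number, grey lines between equally numbered libraries, and the mean and SD beside each group; the 3 panels have different axis ranges. Tyr to Dct and Tyr to Tyrp1 lie 2.62 and 2.35 higher in HPC on average, and Tyrp1 to Dct 0.27 higher.

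The total of the 3 enzymes was close in both populations, and Tyr is a small part of it. Their summed level was 22499 ± 1096 CPM in HPC, against 21326 ± 541 CPM in LPC (SD, n = 3 each). Tyr made up 3.83%, 3.86% and 4.60% of their counts in the HPC libraries, and 1.21%, 0.300% and 1.10% in those of LPC. The 95% Wilson intervals of these shares, which cover counting error only, were 3.77% to 3.89% for HPC replicate 1 and 0.284% to 0.318% for LPC replicate 2. Dct made up 58.4 ± 2.12% in HPC and 64.6 ± 2.25% in LPC, and Tyrp1 37.5 ± 2.33% in HPC and 34.5 ± 2.31% in LPC.

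The spread among LPC libraries was wide for Tyr and narrow for the other two. The highest LPC library held 4.20 times the Tyr level of the lowest, against 1.16 times among HPC libraries. The SD of log2 CPM of Tyr was 0.11 in HPC and 1.16 in LPC, while counting error alone gives a coefficient of variation of 0.715% to 0.786% in HPC libraries and 1.61% to 2.92% in LPC libraries. For Tyrp1 the SD was 0.10 in HPC and 0.09 in LPC, and for Dct 0.10 in HPC and 0.06 in LPC. The median over all tested genes was 0.17 in HPC and 0.21 in LPC.

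Of 2564 tested genes with a mean of at least 100 CPM, 2 had a larger SD among LPC libraries than Tyr, namely Cited1 and Hpse, while 1543 had a larger SD among HPC libraries. Over all 11921 tested genes, low levels included, 1.16% had a larger SD than Tyr among LPC libraries. Cited1 and Hpse were named after their values were seen. Cited1, which encodes a transcriptional coactivator, had an SD of 1.20 in HPC and 1.56 in LPC, and Hpse, the heparanase gene, one of 0.93 in HPC and 1.24 in LPC. A wide LPC spread was also seen in 2 genes of melanosome transport described below, taken up here after their values were seen. Trpm1 had an SD of 0.54 in HPC and 1.05 in LPC. Oca2, with a mean of 94.1 CPM, lay just outside the comparison, and averaged 132 ± 22.9 CPM in HPC, against 56.3 ± 39.7 CPM in LPC. The wide spread of Tyr rested on LPC replicate 2: without that library the SD was 0.10, and without LPC replicate 1 or 3 it was 1.37 or 1.46. For the other enzymes LPC replicate 2 lay close to the rest of its group, as the middle library for Tyrp1 and the lowest for Dct.

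**Figure D3:**
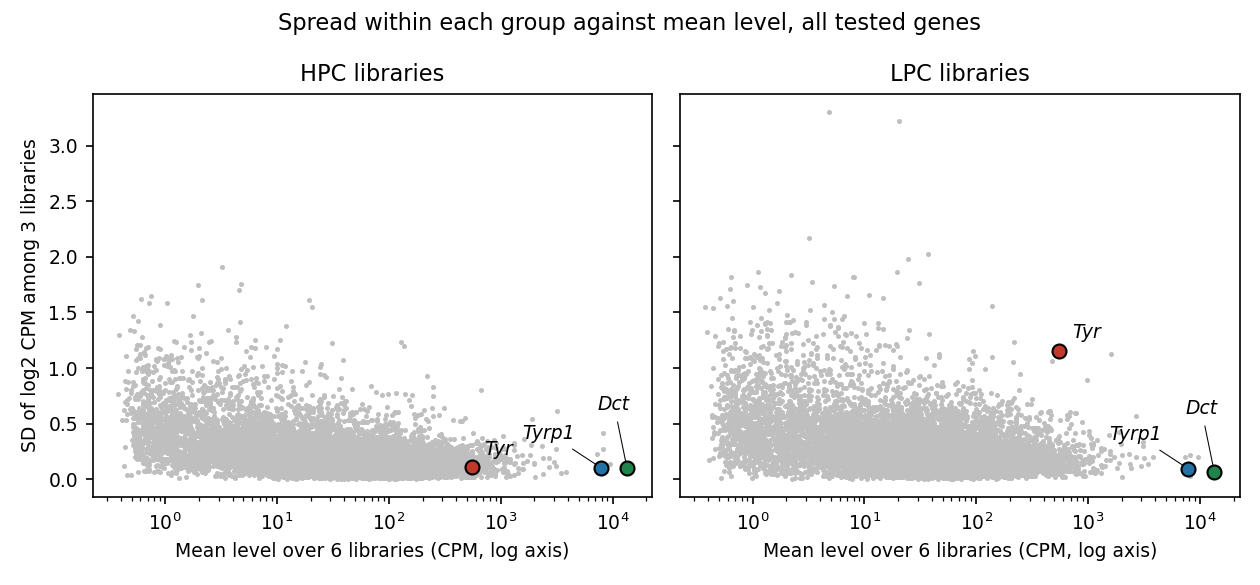
SD of log2 CPM among the 3 HPC libraries (left) and the 3 LPC libraries (right) against the mean CPM over all 6 libraries on a log axis, with a grey point for each of 11921 tested genes and Tyr, Tyrp1 and Dct in colour. Tyr lies at 0.11 in HPC and 1.16 in LPC, while Tyrp1 and Dct lie at 0.10 or below in both, after rounding.

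The genes with levels most like those of Tyr over the 6 libraries, by Pearson's r of log2 CPM among 9389 genes with a mean of at least 10 CPM, were Srgap2, Asb1, Sec23b, Arhgap32 and Met (r from 0.990 to 0.993). The 6 points share their libraries and their 2 groups, and r takes no account of the size of a difference. Met, which encodes the receptor for hepatocyte growth factor, had levels of 1334, 1559 and 1822 CPM in the HPC libraries, against 444, 173 and 556 CPM in those of LPC. As with Tyr, its lowest library was LPC replicate 2 and its highest HPC replicate 3, which its choice by r favours. Srgap2, first in likeness, differed by 0.31 on the log2 scale and did not pass with the block (edgeR adjusted p = 0.13). Arhgap32 averaged 62.5 ± 2.97 CPM in HPC, against 30.6 ± 6.58 CPM in LPC, and passed with the block (edgeR adjusted p = 0.016) but not without it (edgeR adjusted p = 0.11).

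Neither of the other enzymes was like Tyr. Over the 6 libraries r between Tyr and Tyrp1 was 0.68, which placed Tyrp1 at rank 1203 of 9389, and r between Tyr and Dct was -0.26. With the group means taken away, r was -0.01 for Tyrp1 and 0.34 for Dct, and the genes most like Tyr were then Tmem245, Vcpip1, Pikfyve, Uba6 and Prr14l (r from 0.993 to 0.999). None of these 5 passed with the block. Each had its lowest level in LPC replicate 2, which follows from their being picked for likeness to Tyr. The genes most like Tyrp1 over the 6 libraries were 1700066M21Rik, Med19, Mcc, Brf2 and Trdmt1, and those most like Dct were Rnf44, Cbx8, Tmem234, Supt20 (ENSMUSG00000095832, one of 2 rows of that name) and Brs3. With the group means taken away they were Epc2, Ythdf2, Mcc, Rnmt and Tial1 for Tyrp1, and Rnf44, Brs3, Tnfrsf10b, Abhd14a and mt-Co1 for Dct. Of these genes, Tnfrsf10b alone was called with the block (edgeR adjusted p = 0.0495), as higher in HPC, and it was not called without it (edgeR adjusted p = 0.22). The blocked fit called 2.52% of all tested genes.

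Genes whose products act with the tyrosinase family were taken from 7 lists of 68 genes, 61 of which were tested. Without the block edgeR called none of them, and at an unadjusted p under 0.05 it gave 5 as higher and 2 as lower in HPC, against 5.06% and 4.31% of all tested genes. DESeq2 called Trpm1 as higher and Tfap2a as lower, against 1.02% and 0.856% of all tested genes. With the block edgeR called 3, of which Trpm1 and Oca2 were higher and Tfap2a lower in HPC, against 1.43% of all tested genes higher and 1.1% lower. The median log2 fold change was -0.03 over the 61 genes and -0.01 over all tested genes. Without the pair numbered 2, the blocked fit called none of the 61, and none of all 11927 genes that it tested.

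Among 8 genes of melanosome ion and copper transport the median log2 fold change was 0.37, 7 lay above 0 (5746 of all 11921 tested genes did), and 5 were higher in HPC without overlap, as were 7.16% of all tested genes. Trpm1, a cation channel gene of melanocytes, had levels of 215, 413 and 407 CPM in the HPC libraries, against 32.7, 66.4 and 141 CPM in those of LPC. The blocked fit put it 4.87-fold higher in HPC (edgeR adjusted p = 0.0077). Oca2, which encodes a melanosomal chloride channel that raises the pH in which tyrosinase works, averaged 132 ± 22.9 CPM in HPC, against 56.3 ± 39.7 CPM in LPC, without overlap. The blocked fit put it 2.75-fold higher in HPC (edgeR adjusted p = 0.047). For both genes LPC replicate 1 was the lowest library, whereas for Tyr it was LPC replicate 2. Mfsd12, a melanosomal transporter of cysteine, averaged 52.5 ± 20.3 CPM in HPC, against 34.8 ± 11.2 CPM in LPC, and its groups overlapped (edgeR adjusted p = 0.075 with the block).

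Among 11 tested transcription factors of the enzyme genes the median was -0.13 on the log2 scale, and 9 lay below 0. Of all 11921 tested genes, 6175 lay below 0. Mitf, which binds the M-box, had a log2 fold change of 0.05 (SE 0.14), and Sox10, which activates Mitf and Dct, one of -0.06 (SE 0.12). Neither passed with the block (edgeR adjusted p = 0.83 and 0.77). Tfap2a, a melanocyte regulator that shares targets with Mitf, averaged 80.6 ± 12.6 CPM in HPC, against 122 ± 17.1 CPM in LPC, without overlap. The blocked fit put it 1.52-fold lower in HPC (edgeR adjusted p = 0.024). Usf1 averaged 29.3 ± 2.09 CPM in HPC, against 36.1 ± 6.29 CPM in LPC, and Zeb2 had a log2 fold change of -0.24; both overlapped between groups.

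The 23 tested genes that sort enzymes to melanosomes, among them subunits of the adaptor AP-3 and of the BLOC complexes, had log2 fold changes from -0.26 for Bloc1s5 to 0.37 for Ap1s2, with a median of 0.00, and none was called. Stx12, a syntaxin of recycling endosomes, averaged 161 ± 10.9 CPM in HPC, against 127 ± 18.8 CPM in LPC without overlap (edgeR adjusted p = 0.11 with the block). It was the 1 gene of the 23 that was higher in HPC without overlap, while 3, Bloc1s5 among them, were lower without overlap. Of all tested genes, 7.16% were higher and 7.18% lower in HPC without overlap. None of the 4 melanosome structural and membrane partners was called. Gpnmb averaged 9257 ± 1789 CPM in HPC, against 7236 ± 1040 CPM in LPC. Gpr143 averaged 91.5 ± 11.6 CPM in HPC, against 72.5 ± 9.97 CPM in LPC, and Pmel, the fibril protein of the melanosome, 9892 ± 930 CPM in HPC, against 9214 ± 1246 CPM in LPC. All 3 overlapped between groups.

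No upstream receptor was called. Mc1r, the melanocortin receptor, averaged 517 ± 64.2 CPM in HPC, against 587 ± 69.8 CPM in LPC. Kit was at 42.2, 40.5 and 44.4 CPM in HPC and at 82.5, 47.2 and 45.8 CPM in LPC, so the groups did not overlap but LPC replicate 1 alone was far off. The 7 genes of glycoprotein folding in the endoplasmic reticulum had a median of -0.04 on the log2 scale, with Pdia3 the most negative at -0.24 (637 ± 88.8 CPM in HPC, against 751 ± 59.0 CPM in LPC), and Hsp90b1 at -0.16 and Ganab at -0.08. The 6 tested genes of other tautomerases and of tyrosine or biopterin supply had a median of -0.06, with Mif at -0.15, Spr at -0.11 and Pts at -0.07. None of these genes was called.

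**Figure D4:**
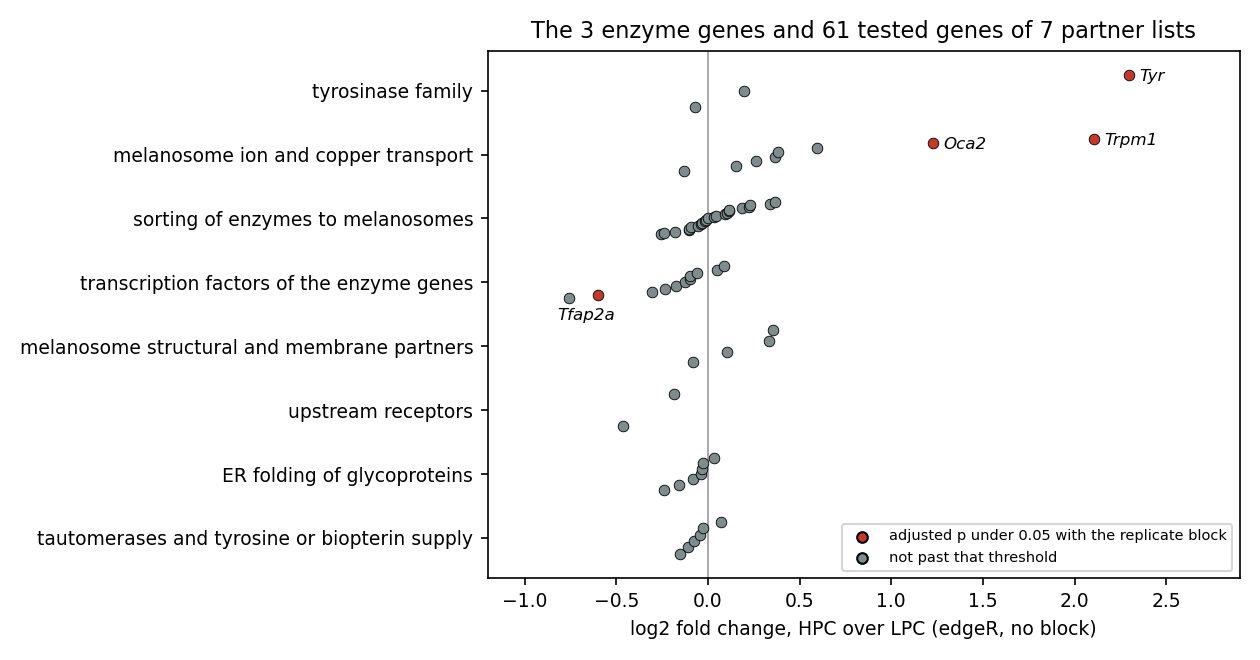
Log2 fold changes of HPC over LPC from the edgeR fit without the block, for the 3 enzymes (top row) and for the 61 tested genes of the 7 partner lists (1 row a list, 1 point a gene, the vertical offset within a row being for legibility only). Red points, which are named, have an adjusted p under 0.05 with the replicate block: Tyr at 2.30, Trpm1 at 2.11, Oca2 at 1.23 and Tfap2a at -0.60.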

How the data were processed

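The authors deposited raw counts per gene, not normalized, for each of 6 libraries. Per the labels' protocols these are QuantSeq 3′ mRNA-Seq FWD libraries; per the submitters' processing notes STAR is the aligner and GRCm38 the build. How reads were counted, with which annotation, and whether strand or molecular identifiers were used is not given in the sources used here, so copies made by PCR may be counted. Since nothing says that replicates were grown or sorted apart, the spread behind the p-values may be technical. In fits without the block it is the spread among the 3 libraries of a group. In blocked fits it is the spread of the differences between equally numbered libraries. The edgeR, DESeq2 and limma fits also draw on the variance of other genes.

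Low counts were removed with filterByExpr, and libraries were scaled with TMM factors. The test was edgeR's quasi-likelihood test (edgeR 4.0.16, R 4.3.3), fitting group alone, with 4 residual degrees of freedom and Benjamini-Hochberg adjustment over 11921 genes, called under 0.05. Standard errors of the edgeR fits were worked back from the log2 fold change and the F statistic. Intervals use these standard errors and 8.25 degrees of freedom. DESeq2 1.42.0 and limma 3.58.1 were alternatives. CPM use TMM factors, except marker sums, which use library totals. Log2 CPM use a prior count of 2. Ratios were tested with two-sided exact permutation tests (scipy 1.17.1).

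The groups share replicate numbers. Deviations from group means correlated at 0.42, 0.35 and 0.65 between libraries numbered 1, 2 and 3, all above the minimum of 0.1 set for pairing. Between unequal numbers the 6 correlations ran from -0.59 to 0.20, the highest (HPC 2 with LPC 1) also above that minimum. Blocked values (2 residual degrees of freedom) stand beside results whose call they change. The pairing comes from the data, not the labels, and it is weak evidence, because deviations from a mean of 3 must sum to 0.

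The members and lists were chosen with earlier results of these data known. Named genes are the 3 enzymes, the called members of each list and its 3 largest changes with a mean of at least 5 CPM, and the 5 genes most like each enzyme. Mitf, Sox10, Dclk1 and Tmem140 lie outside this rule and were chosen after their values were seen. Of 2 rows named Ap1g1 the one with more counts was used. Genome positions are those of GENCODE M21.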

Additional observations from a re-analysis of the deposited data

How the results depend on the processing

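The log2 fold changes of Tyr, Tyrp1 and Dct kept their sign in all 16 alternatives to the edgeR fit. Those of Tyrp1 (0.15 to 0.25) and Dct (-0.13 to -0.02) never passed. For Tyr the value passed with DESeq2 (2.30), with the replicate block (2.52) and with the block but without the pair numbered 1 (2.91) or 3 (2.78), and its adjusted p without the block ran from 0.0092 to 0.41. Fits without a pair have 1 residual degree of freedom and are weak grounds for a call. The one without the pair numbered 1 called 1654 genes as higher and 1293 as lower in HPC. Leaving out 1 library without the block gave 1.89 to 2.62 for Tyr, with adjusted p between 0.051 (LPC replicate 2 left out) and 0.41 (HPC replicate 3 left out). Leaving out 1 library changed the difference in log2 ratio to between 1.97 and 3.00 for Tyr to Dct, between 1.68 and 2.70 for Tyr to Tyrp1 and between 0.18 and 0.33 for Tyrp1 to Dct. Only the blocked fits with a second enzyme as scale, chosen after seeing the data, passed for Tyr to Dct (2.59) and Tyr to Tyrp1 (2.33). The smallest p that a sign-flip test of 3 pairs allows is 0.25, so the exact tests could not pass under any alternative. The SD of Tyr among LPC libraries was 0.10 to 1.46 with 1 of them left out. No other call on the 3 enzymes changed with the block.

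Counts of calls moved most. Without the block 0 genes were higher and 5 lower in HPC. They became 122 and 102 with DESeq2, 12 and 16 with no filter, and 170 and 131 with the block. Blocked and without a pair they were 1654 and 1293 (pair 1), 0 and 0 (pair 2), and 130 and 66 (pair 3), each with 1 residual degree of freedom. Without 1 library they ran from 0 to 27 and from 0 to 17. Of the partner genes, 0 were higher and 0 lower without the block, 1 and 1 with DESeq2, 2 and 1 with the block, 7 and 6 blocked without pair 1, and 2 and 0 blocked without pair 3; leaving out 1 library gave 0 to 1 higher and 0 lower. Beyond the construction of each fit, the cause was not tested.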
